A study of Mus musculus with 18 samples.

Results

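The 7 genes described here, Hmgcs1, Fdps, Fdft1, Sqle, Cyp51, Sc5d and Dhcr7, encode enzymes of cholesterol synthesis and were read in the brains of mouse pups that differed in metallothionein genotype and in lead exposure. They were chosen by symbol, as the probe sets that the platform annotation assigns to exactly 1 of these genes. They make up 7 of the 18194 genes measured, or 19 of the 45101 probe sets. Each gene is given by its brightest probe set as summarised by RMA, a method that yields log2 intensities, and its other probe sets serve as a check. All 7 were among the 10916 genes bright enough to be tested. A level is valid only within a probe set, so the 7 genes are not ranked against each other by level.

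Whole brains were collected on postnatal day 8 from pups of both sexes, and 6 groups were formed from 3 genotypes and 2 treatments. These were Mt-KO (-/-), heterozygous (+/-) and wild-type (+/+) pups, each given lead acetate at 50 mg/kg or saline. Injections were made 2 times daily, separated by 4 h, over postnatal days 7 and 8, and tissue was taken 6 h after the last one. The knockout had been backcrossed to C57BL/6J for at least 7 generations, and the labels give C57BL/6J as the wild type. Every group is a single pool of RNA from 5 pups on a single array. The spread between pups or between pools of a group is therefore not measured, and the number of arrays limits the precision. In such bulk RNA, fewer cells of a type and less RNA per cell cannot be told apart.

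Cholesterol in the brain is made locally, because plasma lipoproteins do not cross the blood-brain barrier, and synthesis is intense in the early postnatal weeks when oligodendrocytes build myelin and astrocytes supply growing neurons. The pathway runs from acetyl-CoA through mevalonate and isoprenoid diphosphates to squalene, which is epoxidised, closed to a sterol ring and trimmed to cholesterol. Its enzymes share a transcriptional activator, SREBP-2, which is released from the endoplasmic reticulum when membrane sterols are low and binds sterol regulatory elements, usually with NF-Y at CCAAT boxes nearby.

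Promoter windows of 4 of the 7 genes were found in the RefSeq promoter table (GRCm38.p6). They are shown because the members are textbook targets of 1 factor, so that its motifs can be looked for directly. Each line holds the 250 bases before an annotated start, 5' to 3' on the gene's strand, with capitals marking the sterol regulatory element TCACNCCAC, its core CACNCCAC or the NF-Y box CCAAT on either strand. ATTGG is CCAAT on the other strand. The windows are chr13:119690101-119690350 (+) for Hmgcs1, chr5:4104698-4104947 (-) for Cyp51, chr9:42264301-42264550 (-) for Sc5d and chr7:143829964-143830213 (+) for the third annotated start of Dhcr7.
Hmgcs1: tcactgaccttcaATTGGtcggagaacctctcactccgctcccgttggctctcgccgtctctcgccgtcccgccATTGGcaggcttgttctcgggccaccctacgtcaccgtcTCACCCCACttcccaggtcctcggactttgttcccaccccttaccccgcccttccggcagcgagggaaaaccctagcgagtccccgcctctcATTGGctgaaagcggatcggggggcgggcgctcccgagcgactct
Cyp51: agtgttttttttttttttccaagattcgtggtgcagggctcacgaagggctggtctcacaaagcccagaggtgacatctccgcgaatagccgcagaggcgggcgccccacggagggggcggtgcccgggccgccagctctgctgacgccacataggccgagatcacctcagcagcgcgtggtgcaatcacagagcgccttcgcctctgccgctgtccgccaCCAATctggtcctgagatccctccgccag
Sc5d: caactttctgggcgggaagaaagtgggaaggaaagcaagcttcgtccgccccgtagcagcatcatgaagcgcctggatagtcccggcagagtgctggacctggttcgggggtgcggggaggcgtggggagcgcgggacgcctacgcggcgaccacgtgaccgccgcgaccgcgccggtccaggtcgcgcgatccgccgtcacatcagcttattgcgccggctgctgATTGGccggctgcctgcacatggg
Dhcr7: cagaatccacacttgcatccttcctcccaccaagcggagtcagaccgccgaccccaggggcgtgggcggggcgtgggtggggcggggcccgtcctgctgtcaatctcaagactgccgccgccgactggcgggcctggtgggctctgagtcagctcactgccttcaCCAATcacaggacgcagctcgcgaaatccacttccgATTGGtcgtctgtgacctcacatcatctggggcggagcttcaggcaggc

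Hmgcs1 carried the motif TCACCCCAC at 137 bases before the start, together with 3 CCAAT boxes on the reverse strand at 237, 176 and 45 bases. TCACNCCAC occurred in 1.05% of all 32851 windows of the table, searched on both strands, and its shorter core CACNCCAC, which overlaps it, in 5.29%. Neither TCACNCCAC nor its core was found in the windows of Cyp51 and Sc5d or in any Dhcr7 window. Cyp51 had 1 CCAAT box at 29 bases and Sc5d had 1 on the reverse strand at 24 bases. The Dhcr7 window shown had 2, at 85 and 49 bases, while the other 2 Dhcr7 windows had 0. CCAAT occurred in 33.8% of all windows, so a single box is common, and the Sp1 box GGGCGG, also searched on both strands, occurred in 32.7%. A match is a string of letters and not evidence of binding. Fdps lies on chromosome 3, Fdft1 on chromosome 14 and Sqle on chromosome 15.

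The 6 arrays correlated at 0.982 to 0.993 across the genes tested, but they did not share 1 distribution. The median tested gene lay 0.09 higher with lead in the Mt-KO pair, 0.15 higher in the heterozygous pair and 0.18 lower in the wild-type pair (log2), so differences between single pools are given below relative to the median gene. The wild-type saline pool stood apart in RNA quality, since its 3' Gapdh probe set exceeded the 5' one by 1.19 (log2), against 0.54 to 0.82 in the other 5 pools. Mt1, a metallothionein gene and the check of the genotype labels, was lowest in Mt-KO (11.71 with lead, 11.68 with saline), intermediate in heterozygotes (12.87 and 12.45) and highest in wild type (13.30 and 13.17). The Mt-KO lead and saline pools differed in sex-linked transcripts (Xist at 10.23 with lead and 12.75 with saline). Eif2s3y, also sex-linked, was lowest in the Mt-KO saline pool. Relative to the median gene, its lead minus saline difference was 4.57 in Mt-KO, 0.07 in heterozygotes and -0.82 in wild type. Its Mt-KO minus wild-type difference was 1.62 with lead and -3.80 with saline. The Mt-KO lead pair and the Mt-KO differences from wild type thus also differed in sex-linked transcripts. The heterozygous lead pool held more of the pituitary markers, with a summed level of 12.51 against 10.85 to 11.12 in the other 5 pools. All 8 listed neuronal markers and all 8 astrocytic ones were bright enough to be tested. The part of these pool differences in the results below was not tested.

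Lead exposure gave no change in any of the 7 genes that passed the test. Hmgcs1, Fdps, Fdft1 and Sqle shared a pattern by RMA, relative to the median gene. Their lead pool was below the saline pool in wild type and at or above it in heterozygous and Mt-KO brain. The RMA differences ranged from -0.41 to 0.39 (log2, relative to the median gene) and those of Fdft1 stayed within -0.09 and 0.01. With GC-RMA values Fdps (-0.075 in heterozygotes) and Sqle (-0.39 in Mt-KO) lost the pattern. With PLIER Fdft1 lost it (-0.03 in Mt-KO), while Hmgcs1 kept it under both summaries.

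Hmgcs1 makes HMG-CoA, the precursor of mevalonate. It measured 14.35 with lead and 14.05 with saline in Mt-KO, 14.71 and 14.17 in heterozygotes, and 14.39 and 14.98 in wild type (log2 RMA). The wild-type saline pool was the highest of the 6 and the Mt-KO saline pool the lowest, and the lead and saline pools overlapped. Relative to the median gene, lead minus saline was 0.21 in Mt-KO, 0.39 in heterozygotes and -0.41 in wild type.

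Fdps condenses isoprenoid units to farnesyl diphosphate, from which sterols and prenyl groups are made. It measured 12.39 with lead and 12.23 with saline in Mt-KO, 12.27 and 12.10 in heterozygotes, and 11.63 and 12.09 in wild type. The wild-type lead pool alone lay well below the rest. Its lead minus saline difference relative to the median gene was -0.28, against 0.06 in the Mt-KO pair and 0.02 in the heterozygous pair.

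Fdft1, squalene synthase, takes the first step that leads only to sterols. It measured 12.32 with lead and 12.23 with saline in Mt-KO, 12.38 and 12.22 in heterozygotes, and 12.09 and 12.36 in wild type. Sqle, squalene epoxidase, a rate-limiting step after mevalonate, measured 13.02 and 12.92 in Mt-KO, 13.20 and 12.89 in heterozygotes, and 12.74 and 13.23 in wild type. For both genes the wild-type lead pool was the lowest of the 6, and lead and saline pools overlapped. Relative to the median gene, lead minus saline for Sqle was 0.01 in Mt-KO, 0.16 in heterozygotes and -0.30 in wild type.

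Cyp51 removes a methyl group from lanosterol. It measured 11.43 with lead and 11.25 with saline in Mt-KO, 11.36 and 11.19 in heterozygotes, and 11.05 and 11.23 in wild type. Relative to the median gene its lead minus saline differences were 0.09, 0.01 and 0.00 in the same order of genotypes. Dhcr7, the reductase whose product is cholesterol itself, spanned only 0.16 over the 6 pools, from 11.88 in wild-type lead to 12.05 in heterozygous lead, and its 3 lead differences lay between -0.05 and 0.02. By RMA on these probe sets, both enzymes thus stayed within 0.09 of the median gene in every lead pair. The second Cyp51 probe set gave 0.06 in Mt-KO, 0.18 in heterozygotes and -0.24 in wild type. With GC-RMA values the Mt-KO pair gave 0.13 for Cyp51 and 0.17 for Dhcr7.

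Sc5d is a sterol desaturase that acts just before Dhcr7. Its brightest probe set by RMA had GC-RMA values of only 3.35 to 3.55, near the array medians of 3.33 to 3.60 over all probe sets, so its RMA differences are not shown to lie above background. It measured 10.89 with lead and 11.06 with saline in Mt-KO, 10.85 and 11.51 in heterozygotes, and 10.83 and 10.43 in wild type. The 3 lead pools were nearly equal and lay between the saline pools. Lead minus saline relative to the median gene was -0.26 in Mt-KO, -0.82 in heterozygotes and 0.58 in wild type. With PLIER the same probe set gave 0.68, 0.01 and 0.20 in that order, and the next Sc5d probe set gave 0.26, 0.02 and 0.09 by RMA, so the RMA pattern of the brightest one was not found in either.

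**Figure D1:**
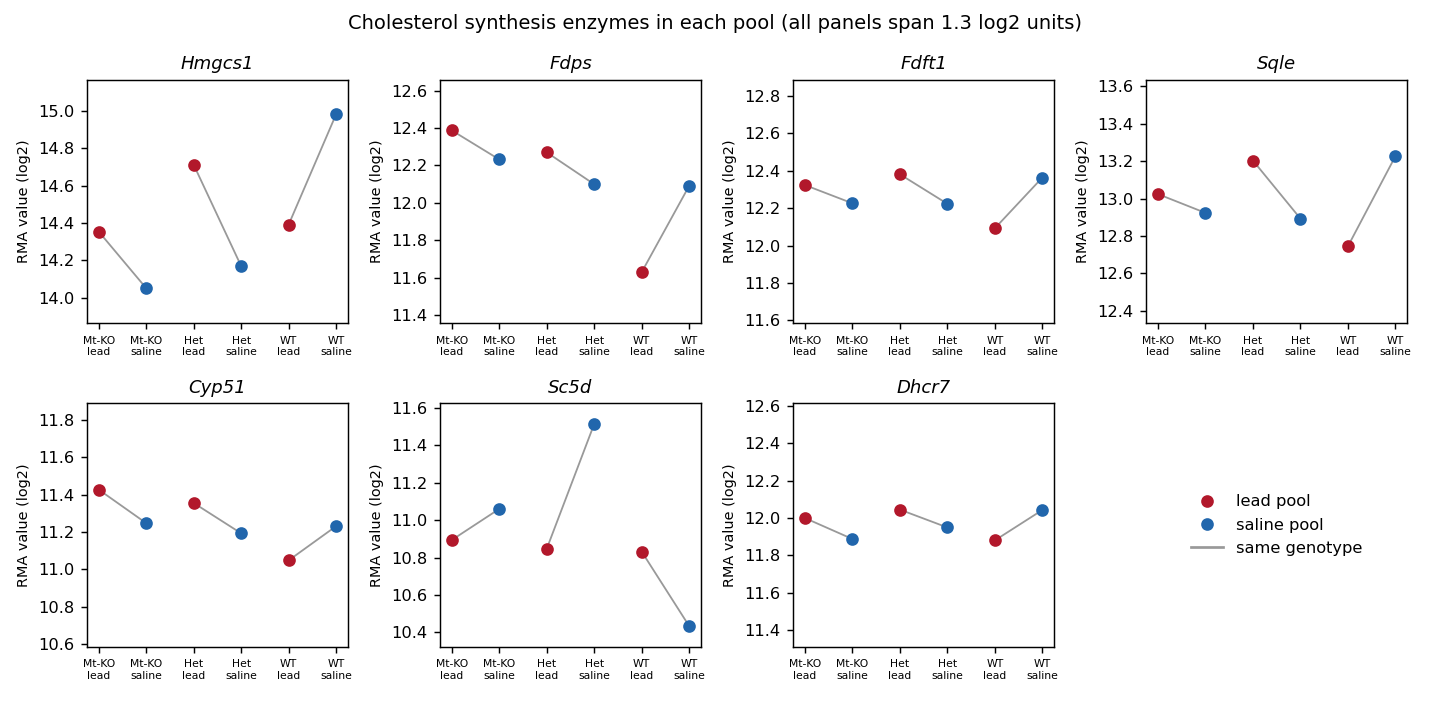
Level of each of the 7 genes (log2 RMA, brightest probe set) in the 6 pools, 1 point per pool of 5 pups, with lead in red, saline in blue and a grey line joining the pools of a genotype. All panels span the same number of log2 units, and Hmgcs1 and Sc5d have the widest ranges. As deposited, the wild-type lead pool is the lowest point for Fdps, Fdft1, Sqle, Cyp51 and Dhcr7. Its array also had the lowest median of the genes tested (10.87).

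In the fit with genotype as a block, where the only repeats of the treatment contrast are the 3 genotypes, the lead coefficients ranged from -0.15 (SE 0.13) for Sc5d to 0.08 (SE 0.34) for Hmgcs1. None of the 7 passed (limma adjusted p = 1 for each), and 0 had an unadjusted p under 0.05, while 13 of all genes tested passed (0.119%). The median coefficient of the 7 was -0.01, and that of all genes tested 0.02, with 2 of the 7 above the median gene. The 95% intervals were -0.58 to 0.75 for Hmgcs1, -0.37 to 0.28 for Fdps and -0.22 to 0.33 for Cyp51. Changes within these ranges were not excluded. No gene of the 7 had its 3 lead pools clear of its 3 saline pools, against 4.31% of all genes tested with lead above and 4.03% with lead below. Without the wild-type pair, Sc5d passed at -0.42 (limma adjusted p = 0.00359), in a fit in which 24.1% of all genes tested passed.

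**Figure D2:**
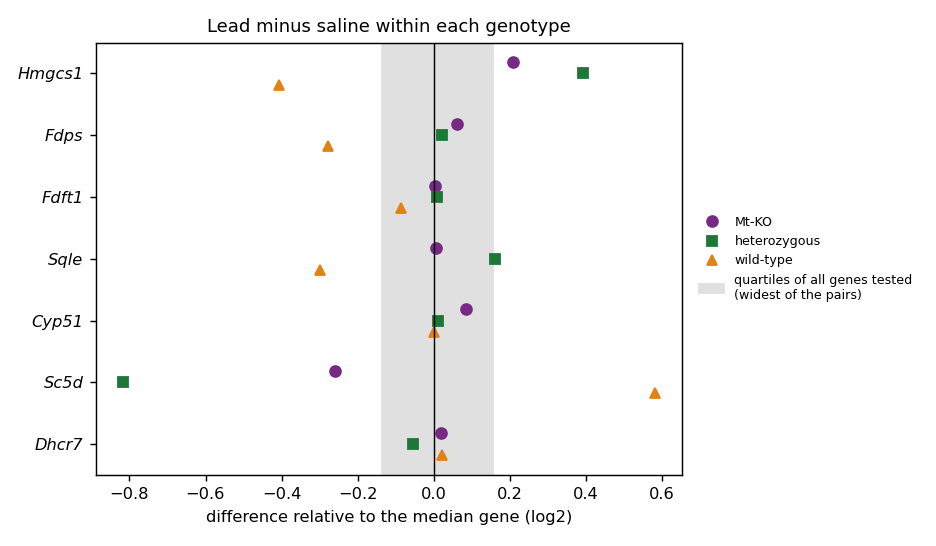
Lead minus saline for each of the 7 genes within Mt-KO, heterozygous and wild-type brain (log2 RMA, relative to the median gene tested), 1 point per pair of pools, so without error, and with the quartiles of all genes tested, the widest of the pairs, as a grey band. On their brightest probe sets, Hmgcs1, Fdps, Fdft1 and Sqle lie below 0 in wild type and at or above 0 in both other genotypes. Sc5d shows the opposite signs on a probe set that is near background by GC-RMA.

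The 4 genes with this pattern compare with 23.1% of all genes tested, and after quantile normalization only Hmgcs1 kept it, against 19.5% of all genes tested. Cyp51 alone was above the median gene in all 3 pairs (11.5% of all genes tested), and 0 of the 7 were below it in all 3 (10.9%). At a limit of 0.32 (log2) beyond the median gene either way, with no test, Hmgcs1 was higher with lead in heterozygotes (2.24% of all genes tested) and lower in wild type (5.4%). The brightest Sc5d probe set was lower with lead in heterozygotes (2.57%) and higher in wild type (8.53%), but with PLIER neither difference passed the limit. None of the 7 reached this limit in the Mt-KO pair, where 1.27% of all genes tested were higher and 2.92% lower.

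The design also asks whether the lead difference depends on the number of metallothionein alleles lost. The coefficient per lost allele was 0.45 (SE 0.31, limma adjusted p = 0.395) for Hmgcs1, 0.31 (SE 0.14, limma adjusted p = 0.194) for Fdps and -0.28 (SE 0.12, limma adjusted p = 0.154) for Sc5d. It lay between 0.14 and 0.29 for Fdft1, Sqle, Cyp51 and Dhcr7. None of the 7 passed, whereas 412 of all genes tested did (3.77%), and the median of all genes tested was itself 0.15, against a median of 0.18 for the 7. Fdps and Sc5d had an unadjusted p under 0.05, as had 2194 of all genes tested. Fdps passed without the Mt-KO lead pool at 0.57 (limma adjusted p = 0.0341, with 9.43% of all genes tested passing), and Sc5d without the Mt-KO saline pool at -1.05 (limma adjusted p = 0.000428, with 1.41%).

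No genotype difference of the 7 genes passed over all genes tested. Relative to the median gene, by RMA on the brightest probe sets, Fdps lay above wild type in Mt-KO and heterozygous brain under both treatments. Cyp51 did so by smaller amounts and Fdft1 by 0.01 to 0.14. As deposited, Fdft1 with saline was lower in both genotypes than in wild type, and Cyp51 with saline was lower in heterozygotes. Hmgcs1 lay below wild type in Mt-KO brain, mainly among the saline pools.

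For Fdps, Mt-KO minus wild type (log2, relative to the median gene) was 0.66 with lead and 0.29 with saline, and heterozygote minus wild type was 0.47 and 0.17. For Cyp51 the values were 0.28 and 0.17 in Mt-KO, and 0.14 and 0.12 in heterozygotes. Fdft1 differed by 0.14 and 0.01 in Mt-KO, and by 0.12 and 0.02 in heterozygotes. With saline its second probe set gave -0.30 in Mt-KO and -0.20 in heterozygotes. GC-RMA gave -0.005 for the main one in Mt-KO with saline. On their brightest probe sets by RMA, these 3 of the 7 genes, Fdps, Cyp51 and Fdft1, were above the median gene in all 4 differences. So were 11.2% of all genes tested. Below the median gene in all 4 were 0 of the 7 and 10.4% of all genes tested. The differences share the wild-type pools. Their Mt-KO pools, after each array was shifted to a common level, lay above both wild-type pools without overlap, which held for 19.9% of all genes tested. The heterozygous pools did so for these 3 and for Dhcr7 (11.6% of all genes tested), and 0 of the 7 had them below (11.4%).

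Hmgcs1 differed from wild type by -0.13 with lead and -0.78 with saline in Mt-KO, and by 0.15 and -0.65 in heterozygotes. Both Mt-KO pools were below both wild-type pools, as for 19.9% of all genes tested. Sqle differed by 0.18 with lead and -0.15 with saline in Mt-KO, and by 0.29 and -0.17 in heterozygotes, so its direction turned with treatment in both genotypes. The brightest Sc5d probe set differed by -0.03 and 0.78 in Mt-KO, and by -0.15 and 1.24 in heterozygotes, while with PLIER the saline values were -0.62 and 0.32. Dhcr7 stayed within 0.07 of the median gene in all 4 differences. Beyond the limit of 0.32, Fdps was higher in both genotypes with lead (5.69% of all genes tested for Mt-KO and 2.64% for heterozygotes), where 0 of the 7 were lower (4.79% and 3.84%). With saline, Hmgcs1 was lower (9.41% and 4.12%) and Sc5d higher (6.99% and 5.5%) in both genotypes.

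**Figure D3:**
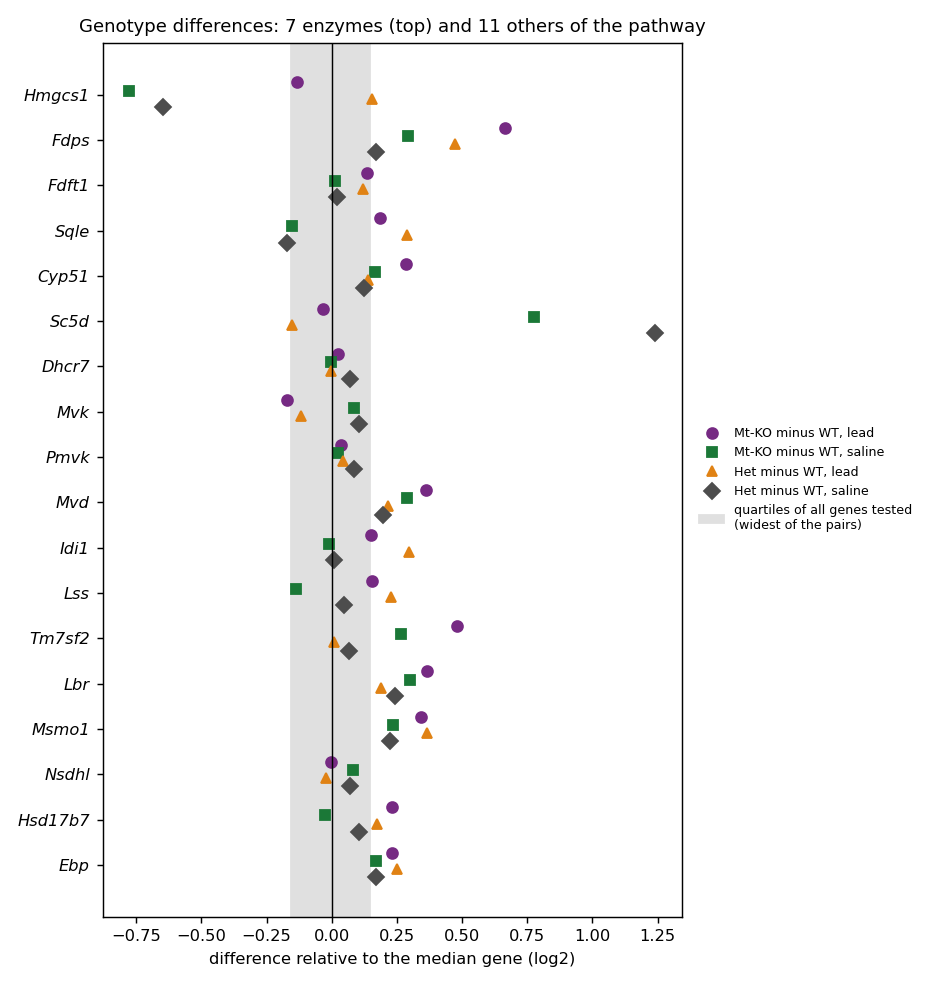
Mt-KO minus wild type and heterozygote minus wild type for the 7 genes (top) and the 11 other enzymes tested, with lead and with saline (log2 RMA, relative to the median gene tested), 1 point per pair of pools and the quartiles of all genes tested, the widest of the pairs, as a grey band. On their brightest probe sets, Fdps, Fdft1 and Cyp51 lie above 0 in all 4 differences, Fdft1 by only 0.01 and 0.02 with saline. The differences of Hmgcs1 and Sc5d are largest between saline pools.

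The fitted Mt-KO coefficient was 0.45 (SE 0.20, unadjusted p = 0.0254, limma adjusted p = 1) for Fdps, with a 95% interval of 0.06 to 0.84. It was 0.34 (SE 0.16, limma adjusted p = 1) for Sc5d, 0.20 (SE 0.17) for Cyp51 and -0.48 (SE 0.41) for Hmgcs1, and between -0.02 and 0.05 for Fdft1, Sqle and Dhcr7. Of the 7 genes 0 passed, against 47 of all genes tested (0.431%), and 6 lay above the median gene. For the heterozygote the largest coefficient was that of Sc5d at 0.55 (SE 0.16, unadjusted p = 0.0008, limma adjusted p = 0.406), followed by Fdps at 0.32 (SE 0.20). Here too 0 of the 7 passed, against 13 of all genes tested (0.119%), and 6 lay above the median gene. The medians of the 7 were 0.05 for Mt-KO and 0.07 for the heterozygote, and those of all genes tested -0.03 and 0.00.

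Which wild-type pool served as the comparison decided several of these values. Without the wild-type saline pool, the Mt-KO coefficients of Fdps (0.76, limma adjusted p = 1.91e-05) and Cyp51 (0.37, limma adjusted p = 0.00389) passed, in a fit that called 22.3% of all genes tested. The heterozygous coefficients of Fdps (0.64), Fdft1 (0.27), Sqle (0.41) and Cyp51 (0.31) then passed as well, with 24.1% called. Without the wild-type lead pool, Hmgcs1 (-0.99), Sqle (-0.36) and Sc5d (0.75) passed for Mt-KO, with 40.1% of all genes tested called, and Hmgcs1 (-0.75) and Sc5d (0.95) for the heterozygote, with 22.2% called. The wild-type saline pool is the one with the Gapdh excess of 1.19 given above.

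By RMA the 6 pools of Hmgcs1 ran in the same order as the standard deviations of their arrays, and the part of this was not tested. Hmgcs1 depended on scaling. After quantile normalization it measured 14.45 with lead and 14.36 with saline in Mt-KO, 14.44 and 14.34 in heterozygotes, and 14.42 and 14.58 in wild type. Its Mt-KO coefficient was then -0.10, against -0.48 as deposited, with the wild-type saline pool still the highest. Fdps kept a positive Mt-KO coefficient under every summary tried, at 0.52 after quantile normalization, 0.74 with GC-RMA, which corrects for probe base composition, and 0.39 with PLIER, without passing. Averaged over its 2 probe sets, the second of which is dim at a mean of 5.70, it was 0.21.

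The other probe sets of a gene gave partly different patterns, and Sc5d is the clearest case. Unlike its brightest probe set, the next one was bright under both RMA and GC-RMA. It measured 10.88 with lead and 10.53 with saline in Mt-KO, 10.57 and 10.40 in heterozygotes, and 10.12 and 10.22 in wild type by RMA. By GC-RMA it measured 10.67 and 10.28, then 10.27 and 10.06, then 9.85 and 9.78 in the same order. Under both summaries each Mt-KO pool lay above both wild-type pools, and so did each heterozygous pool. Of all genes tested, by RMA with arrays shifted to a common level, 19.9% had such Mt-KO pools and 11.6% such heterozygous pools. Both counts use the same wild-type pools. In the fit, with this probe set chosen after its values were seen, the coefficients were 0.53 for Mt-KO (limma adjusted p = 0.0971), 0.31 for the heterozygote and 0.14 for lead, and the lead difference of -0.82 in heterozygotes was 0.02. The other remaining Sc5d probe set measured 10.49 with lead and 10.42 with saline in Mt-KO, 10.59 and 10.42 in heterozygotes, and 10.08 and 10.68 in wild type, so it followed neither. Over the 6 pools the 3 Sc5d probe sets correlated at -0.25 to 0.34.

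The 3 brightest Hmgcs1 probe sets correlated with each other at 0.93 to 0.99 over the 6 pools. The fourth, at a mean of 13.40, correlated with them at -0.15 to -0.05 and had a Mt-KO coefficient of 0.16, opposite in sign to the -0.48, -0.46 and -0.44 of the other 3. A second Fdft1 probe set, whose identifier ends in x_at, a class that may also bind other transcripts, measured 11.67 with lead and 11.51 with saline in Mt-KO, 11.58 and 11.60 in heterozygotes, and 10.86 and 11.95 in wild type. Its wild-type lead pool was the lowest, as for the main probe set, and its wild-type saline pool the highest, over a range of 1.10 against 0.29 for the main one. With it in place of the main one, the interaction per lost allele for Fdft1 was 0.63 (limma adjusted p = 0.000206). The second Cyp51 probe set gave coefficients of 0.18 for Mt-KO and 0.25 for the heterozygote, against 0.20 and 0.13 for the main one.

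**Figure D4:**
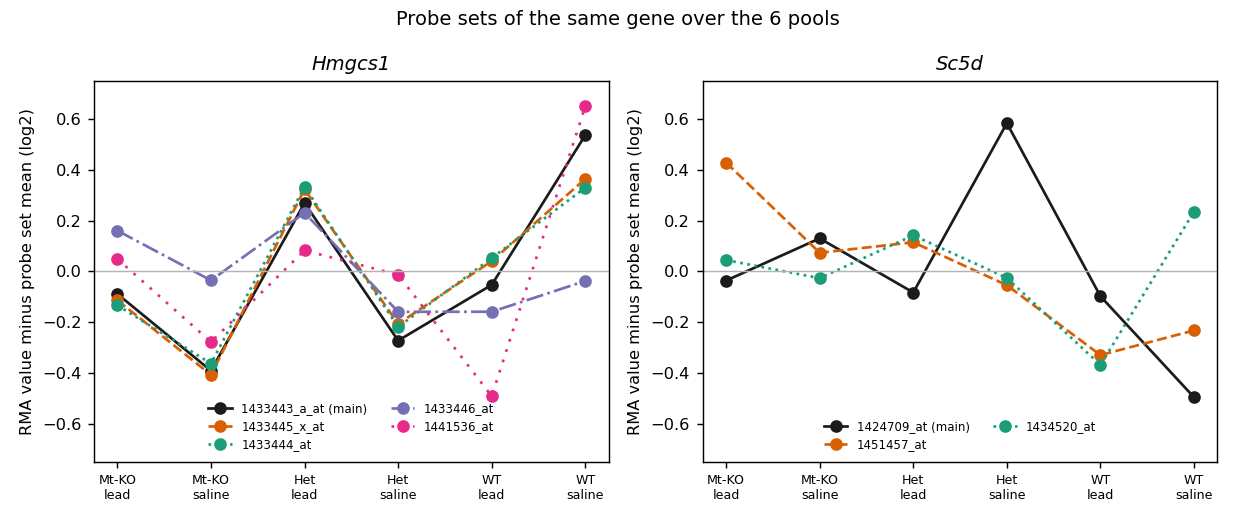
Levels of the probe sets of Hmgcs1 (left) and Sc5d (right) in the 6 pools (log2 RMA, each minus its own mean over the pools), with 1 line per probe set. The 3 brightest Hmgcs1 probe sets run together, while the 3 of Sc5d do not.

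The genes around the members in the pathway were described from lists. Of 14 further cholesterol synthesis enzymes, 11 were tested and 3 were not analysed here. None passed in any comparison. For Mt-KO 10 of the 11 lay above the median gene, with a median coefficient of 0.08 against -0.03 for all genes tested, and for the heterozygote also 10, with a median of 0.14 against 0.00. Those furthest from 0 by their own error for Mt-KO were Tm7sf2, a sterol reductase, at 0.35 (SE 0.18), Mvd, which makes isopentenyl diphosphate, at 0.30 (SE 0.16), and Lbr, a nuclear envelope protein with sterol reductase activity, at 0.31 (SE 0.17). For the heterozygote they were Msmo1, which demethylates sterols after Cyp51, at 0.30 (SE 0.18), Ebp, a sterol isomerase, at 0.21 (SE 0.15), and Mvd at 0.21 (SE 0.16). Each had a limma adjusted p of 1.

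Mvd measured 10.90 with lead and 10.77 with saline in Mt-KO, 10.82 and 10.66 in heterozygotes, and 10.44 and 10.63 in wild type. Like Fdps, it had its lowest value in the wild-type lead pool and its highest in the Mt-KO lead pool. Msmo1 measured 11.71 with lead and 11.50 with saline in Mt-KO, 11.81 and 11.48 in heterozygotes, and 11.28 and 11.42 in wild type. All 4 Mt-KO and heterozygous pools of Msmo1 lay above both wild-type pools. With arrays shifted to a common level, the Mt-KO pools did so for 19.9% of all genes tested and the heterozygous pools for 11.6%. Heterozygote minus wild type with saline was above the median gene for all 11 of these enzymes, at 0.01 to 0.24, and with lead for 9. Mt-KO minus wild type was above it for 9 with lead and for 8 with saline. For lead itself 6 of the 11 were above the median gene, with Lbr at 0.26 (SE 0.14) and Tm7sf2 at -0.16 (SE 0.14).

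The genes that control the pathway were near the median gene by their list medians, but not each in every pair of pools. Of 10 listed genes of SREBP control and its shared targets, 8 were tested, 2 were not analysed here and 0 passed. Srebf2, which encodes SREBP-2, measured 12.68 with lead and 12.61 with saline in Mt-KO, 12.70 and 12.65 in heterozygotes, and 12.76 and 12.69 in wild type. Its 6 pools spanned 0.15. Insig1, which retains SREBP in the endoplasmic reticulum and is itself an SREBP target, had the coefficient furthest from 0 by its error for Mt-KO, at 0.19 (SE 0.17). The list's median coefficient was 0.08 for lead, and by genotype it was -0.04 in Mt-KO and 0.03 in heterozygotes. For the interaction it was 0.17, against 0.15 for all genes tested. Insig2 had 0.28 (SE 0.12, limma adjusted p = 0.155) and Mbtps2 0.26 (SE 0.13, limma adjusted p = 0.223). With saline, Mt-KO minus wild type was 0.33 for Insig1, -0.24 for Mbtps2 and -0.23 for Insig2, relative to the median gene. In that pair 3 of the 8 genes were above the median gene.

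Of 9 cholesterol transport and turnover genes tested, 4 were above the median gene for Mt-KO, with a median of -0.13, and 3 for the heterozygote, with a median of -0.06. Npc1, which exports cholesterol from lysosomes, had -0.24 (SE 0.15) for Mt-KO, and Abca1, which loads lipid onto apolipoproteins, had -0.25 (SE 0.21), whereas Scarb1, a lipoprotein receptor, had 0.16 (SE 0.18). Lcat, which esterifies cholesterol on lipoproteins, had 0.21 (SE 0.15) for the heterozygote. In the isoprenoid branch, 1 of 5 genes lay above the median gene for Mt-KO, with a median of -0.14 and with Pggt1b, a prenyltransferase subunit, at -0.21 (SE 0.17). None of these genes passed in any comparison.

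Cell-type markers moved between the same pools, and their part in the values of the 7 genes was not tested. Of the 12 oligodendrocyte and myelin markers, 10 were tested, and their median lead minus saline difference relative to the median gene was 0.17 in Mt-KO, -0.11 in heterozygotes and 0.41 in wild type. Their summed level (log2) was 15.56 to 16.04 in the lead pools and 15.32 to 15.74 in the saline pools. Olig2, an oligodendrocyte lineage factor, passed for the interaction at 0.48 (limma adjusted p = 0.0057). Its list did not share this, with a median interaction of 0.05 against 0.15 for all genes tested. Of the 10 oligodendrocyte and myelin markers, 3 lay above the median gene there, and Mag had -0.24. The 8 neuronal markers had medians of 0.13, 0.22 and -0.17 in the 3 lead pairs, in the same order, and summed levels of 16.97 to 17.28 with lead and 16.74 to 17.37 with saline. For Mt-KO minus wild type their median was -0.22 with lead and -0.46 with saline, where 0 of 8 were above the median gene. The 8 astrocyte markers had lead medians of 0.14, 0.23 and 0.20, and summed levels of 16.05 to 16.38 with lead and 15.78 to 16.25 with saline. The cerebellar list (granule cell precursors and Purkinje cells) had 5 of 6 genes tested, and all 5 were above the median gene in each lead pair, with medians of 0.35 in Mt-KO, 0.26 in heterozygotes and 0.80 in wild type. Its summed level was 14.07 to 14.18 in the lead pools and 13.58 to 13.81 in the saline pools, without overlap. Pax6 (0.54, limma adjusted p = 0.0036) and En2 (0.55, limma adjusted p = 0.0027), transcription factors of the developing cerebellum, passed for lead, and Pcp2, a Purkinje cell gene, passed for the interaction at -0.42 (limma adjusted p = 0.0395). The microglial list had 5 of 6 genes tested, all above the median gene for lead, with a median coefficient of 0.32 and 0 called. Its summed level was 13.56 to 13.79 with lead and 13.40 to 13.49 with saline. Other listed markers that passed were the pituitary genes Gh (0.85 for lead, 0.82 for the heterozygote) and Pomc (0.87 for the heterozygote), and the endothelial receptor gene Tek (0.38 for the interaction). The sex-linked Xist passed for lead (-0.79) and the interaction (-1.41), and Eif2s3y for lead (1.29), Mt-KO (-1.12) and the interaction (2.83). Mt1 (-1.54) and Mt2 (-0.81) passed for Mt-KO. No marker of the cell-type lists was at 0, since array values have no true zero.

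Of the 21 pairs among the 7 genes, 12 correlated positively over the 6 pools after each array was shifted to a common level. No such share was computed for pairs of other genes. The 15 pairs without Sc5d had a median r of 0.03, with a range of -0.59 to 0.90. All 7 genes were read on the same 6 arrays. Fdft1 correlated with the mean of the other 6 genes at 0.83, Hmgcs1 at -0.72 and Sc5d at -0.52. The last 2 depend on the summary. With PLIER they were 0.39 and 0.32, and Sc5d was 0.16 after quantile normalization and 0.07 with GC-RMA, whereas Hmgcs1 stayed negative under both (-0.77 and -0.87). The mean of the 7 genes spanned -0.10 in wild-type lead to 0.07 in heterozygous saline by RMA. With PLIER it spanned -0.15 in Mt-KO saline to 0.16 in heterozygous lead, and with GC-RMA -0.09 in wild-type saline to 0.07 in Mt-KO saline, so the order of the pools is not settled. The tested genes most like the RMA mean, among 4754 that spanned at least 0.3, were Efhd1 (r = 0.97), Creg1 (0.96), Tmco1 (0.95) and Tm2d1 (0.93). They were followed by Tmem203 and Rrnad1 (0.93 each) and by Mmp14 and Manf (0.92 each), with 6 pools behind each value. None of these 8 was among the 8 most alike with GC-RMA or PLIER values.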

How the data were processed

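Per the labels, 5 pups contributed RNA to each pool and each pool went onto 1 mouse expression array. The deposited table holds 18 columns, namely 6 arrays in 3 summaries, which are not replicates of each other. Partek, RMA, GCRMA and PLIER are named per the submitters' processing notes, without versions. RMA and GC-RMA columns were deposited as log2 values. PLIER columns were deposited as linear intensities, to which 16 was added before taking log2. The labels name a labelling kit for whole-transcript arrays, although the platform is a 3' array, and what this does to the values was not tested.

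Probe sets with 1 symbol in the platform annotation (34958 of 45101) were used, and those with several (932) or none (9211) were not. A gene identifier match in the GRCm38.p6 gene table was found for 34754. The brightest probe set stood for its gene, and the brightest 60% of genes (10916 of 18194) entered limma 3.58.1 under R 4.3.3. Fits used lmFit and a trended eBayes, and two-sided p-values were adjusted by Benjamini-Hochberg with a threshold of 0.05. Genotype plus treatment formed the model for the lead, Mt-KO and heterozygote coefficients, and a further model added lead times the number of lost alleles as a linear term. Both left 2 residual degrees of freedom. The estimated prior was infinite, so p-values rest on the average misfit of genes of like brightness and not on a gene's own spread. The code was tested on simulated data.

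The members and lists were chosen with earlier results of these data known. All 7 members were named, as were list genes that passed and, from the 3 per list and coefficient with the largest t, those described above. The 8 genes most like the members' mean were also named. The alternatives tried were the GC-RMA and PLIER summaries, quantile normalization, centring of arrays, other brightness filters (none, or the upper 40%), averaging over probe sets, an untrended eBayes, a linear allele term, no block for genotype, a 0.10 threshold, a wider limit for single differences, and leaving out a pool or pair. Use of the next probe set, for the 4 members that had one at or above a mean of 9.42, was chosen after seeing the data.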

Additional observations from a re-analysis of the deposited data

How the results depend on the processing

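No paired analysis was possible because the labels give no replicate numbers, apart from the pairing of lead and saline pools by genotype, which the reported lead fit already holds as a block. None of the 7 genes passed under any alternative that kept all 6 pools, except Fdft1 for the interaction with its second probe set. Over all genes tested, the lead comparison called 13 genes as reported, 4 with the upper 40% of genes, and 0 with limma on GC-RMA values (294 at an unadjusted p under 0.05), quantile normalization (552), centred arrays (270), no brightness filter (289), the mean over probe sets (179), eBayes without trend (114) and no genotype block (191). Mt-KO called 47, and 0 with GC-RMA (592 unadjusted), 1 after quantile normalization, 10 with centred arrays, 6 with no brightness filter, 20 with the upper 40%, 10 with the mean over probe sets, 4 without trend and 7 with the linear allele term. The heterozygote called 13, and 0 with GC-RMA (161 unadjusted), quantile normalization (307), centred arrays (172), no brightness filter (280), the mean over probe sets (128) and eBayes without trend (73), 6 with the upper 40% and 7 with the linear allele term. The interaction called 412, and 0 with GC-RMA (1241 unadjusted), 142 with PLIER, 1 after quantile normalization, 54 with centred arrays, 92 with no brightness filter, 99 with the upper 40%, 79 without trend and 737 at a threshold of 0.10. Leaving out a pair or pool gave 1 to 2632 calls for lead, 8 to 4380 for Mt-KO, 3 to 2627 for the heterozygote and 15 to 1029 for the interaction. Of the members these fits called 0 to 1, 0 to 3, 0 to 4 and 0 to 1 in the same order. The cause was not tested. Of the 49 single differences of the members, 10 reached the limit of 0.32 (log2), some of them on the brightest Sc5d probe set. Per pair and direction, 1.27% to 9.41% of all genes tested reached that limit. At a limit of 0.58, 6 differences remained, and the share of all genes tested was not computed. Of the 8 genes most like the members, 0 were shared with GC-RMA or PLIER.

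A member's coefficient is the same by construction with the 0.10 threshold, the other brightness filters and the untrended eBayes. For lead it is also the same without a block for genotype. With those settings counted, the sign of a member's coefficient turned in 17 of 289 alternatives. For lead these were Fdft1 (0.01) and Sc5d (0.07) with GC-RMA, Sqle (0.02) and Sc5d (0.33) with PLIER, Dhcr7 (-0.01) after quantile normalization and Sc5d (0.14) with its next probe set. For Mt-KO they were Sqle with GC-RMA (0.05) and after quantile normalization (0.12), Dhcr7 after quantile normalization (0.03) and Sc5d with PLIER (-0.39). For the heterozygote they were Dhcr7 with GC-RMA (-0.05), and Sqle (-0.01) and Dhcr7 (-0.01) with the linear term. For the interaction they were Sc5d with PLIER (0.47), the mean over probe sets (0.09) and its next probe set (0.23), and Dhcr7 after quantile normalization (-0.03). Leaving out a pair or pool moved the lead coefficient over -0.14 to 0.42 for Hmgcs1, -0.15 to 0.16 for Fdps, -0.09 to 0.13 for Fdft1, -0.19 to 0.21 for Sqle, -0.01 to 0.17 for Cyp51, -0.42 to 0.12 for Sc5d and -0.03 to 0.10 for Dhcr7. The Mt-KO coefficient ranged over -0.99 to 0.02 for Hmgcs1, -0.15 to 0.25 for Fdft1, -0.36 to 0.33 for Sqle, -0.06 to 0.75 for Sc5d and -0.15 to 0.12 for Dhcr7, and stayed positive for Fdps (0.14 to 0.76). The heterozygote coefficient ranged over -0.75 to 0.26 for Hmgcs1, -0.12 to 0.27 for Fdft1, -0.28 to 0.41 for Sqle, -0.04 to 0.31 for Cyp51 and -0.10 to 0.17 for Dhcr7. The interaction ranged over -0.03 to 0.61 for Sqle and -1.05 to 0.48 for Sc5d.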
